A study of Mus musculus with 7 samples.

Results

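The genes described here are 8 transcription factor genes of the intestinal epithelium, Cdx1, Cdx2, Gata4, Gata6, Klf4, Klf5, Isx and Creb3l3, out of 22367 protein-coding genes. They were listed by name. Around each one, every peak of the vitamin D receptor (VDR) was taken whose centre lay within 50 kb of the gene body, in build mm9. Peaks of the 6 libraries that overlapped were merged into 1 region, which gave 98 regions near the 8 genes out of 87029 in the genome. The study mapped VDR by chromatin immunoprecipitation and sequencing (ChIP-seq) in the duodenum and jejunum, the proximal small intestine. By its title it asks which genes the hormone-bound receptor targets in this tissue.

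All mice were wild-type, aged 8 weeks and kept on standard chow. One group received 10 ng of 1,25(OH)2D3 (the active hormone made from vitamin D) for each g of body weight (3 libraries), and the other received vehicle (3 libraries). Tissue was taken after 1 h, and epithelial cells were released with EDTA before immunoprecipitation with an anti-VDR antibody. The only input library carries the hormone dose, and peaks of both groups were called against 1 input. The labels do not tie a library to a mouse, so p-values measure the spread between these libraries, which may be technical. Each library pooled many cells, so binding in more cells and stronger binding per cell cannot be told apart. A peak list shows where the receptor was found, not whether a gene was expressed.

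VDR is a nuclear receptor that, once bound by 1,25(OH)2D3, pairs with the retinoid X receptor and binds DNA, classically at a pair of half-sites in the same orientation separated by a short spacer (a direct repeat, DR3). Much of its binding lies in introns and between genes, away from promoters. In the small intestine it is known above all for the control of calcium absorption. The 8 genes encode other regulators of the same cells: CDX factors set intestinal identity, GATA factors set regional identity along the gut, KLF factors act in crypt proliferation and in differentiation, and ISX and CREB3L3 control absorption and handling of vitamin A and lipids.

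Of 12 regions near these genes that were found in at least 2 hormone libraries and hold a close DR3 match, 8 are printed here, chosen to include each such region at Isx, Cdx2 and Creb3l3 and the one in a Gata4 intron. They were read from NCBI 37 (mm9) within 100 bp of the region centre, 5′ to 3′ on the strand of the repeat, and the DR3 is in capitals. Each half-site has 6 positions and the spacer has 3, so 12 positions were compared, and at most 1 mismatch was allowed. The first site has 0 mismatches and the others have 1.
Isx, 39.6 kb upstream, chr8:77357032-77357106, minus strand: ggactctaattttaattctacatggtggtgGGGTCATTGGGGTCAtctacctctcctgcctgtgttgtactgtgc
Isx, first exon, chr8:77396970-77396984, plus strand: GGTTGAGGAAGTCCA
Isx, 48.5 kb downstream of the start, chr8:77445162-77445236, plus strand: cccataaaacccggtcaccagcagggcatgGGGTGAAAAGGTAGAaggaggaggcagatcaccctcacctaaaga
Cdx2, 46.3 kb downstream of the start, chr5:148072477-148072551, minus strand: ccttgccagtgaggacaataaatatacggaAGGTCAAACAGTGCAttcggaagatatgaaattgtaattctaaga
Gata4, intron, chr14:63851867-63851941, plus strand: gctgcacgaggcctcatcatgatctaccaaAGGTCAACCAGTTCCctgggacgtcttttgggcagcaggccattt
Creb3l3, intron, chr10:80558091-80558165, minus strand: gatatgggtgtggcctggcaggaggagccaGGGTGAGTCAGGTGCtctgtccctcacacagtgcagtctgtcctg
Creb3l3, 55.7 kb downstream of the start, chr10:80505947-80506021, minus strand: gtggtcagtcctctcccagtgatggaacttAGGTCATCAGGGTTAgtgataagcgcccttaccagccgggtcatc
Creb3l3, in an intron of Zbtb7a, chr10:80610093-80610167, plus strand: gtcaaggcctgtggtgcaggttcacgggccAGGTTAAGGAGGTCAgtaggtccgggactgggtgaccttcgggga

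Depth and list length differed between libraries. The vehicle libraries held 15991198 to 68560701 tags and 8756 to 48425 peaks, and the hormone libraries held 17152461 to 66524392 tags and 25510 to 41722 peaks. In both groups replicate 3 was the deepest. The share of tags inside peaks was 2.58% to 8.10% with vehicle and 11.9% to 19.0% with hormone. In vehicle replicate 3, many regions had no counterpart: 32166 regions, 37.0% of all merged regions, were found in that library alone. As a check of the tissue, regions in at least 2 hormone libraries lay near 5 of 5 enterocyte marker genes, 4 of 5 leukocyte markers, 3 of 5 stromal, endothelial and muscle markers and 1 of 4 neuronal markers, and near 70.2% of all genes. Summed over each marker list, enterocyte genes had 12 to 29 peaks per vehicle library and 35 to 46 per hormone library. Leukocyte genes had 7 to 16 and 14 to 18, stromal genes 4 to 16 and 11 to 18, and neuronal genes 0 to 9 and 0 to 2. The stromal marker Pdgfra and the neuronal marker Uchl1 had 0 peaks in every library. The part of other cell types in the results was not tested.

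With 1,25(OH)2D3, VDR peaks were more numerous around most of these genes. Summed over the 8 genes, the vehicle libraries held 13, 24 and 40 peaks (replicates 1, 2 and 3) and the hormone libraries 50, 61 and 66. Every hormone library stood above every vehicle library, at 59 ± 8.19 against 25.7 ± 13.6 peaks (mean ± SD, n = 3 each). The mean was higher with hormone for 8 of 8 genes, and for 63.6% of all genes. For 5 of 8 genes (Cdx2, Gata4, Klf5, Isx and Creb3l3) every hormone library held more peaks than any vehicle library, and the same held for 16.0% of all 22367 genes. For Cdx1, Gata6 and Klf4 the groups overlapped. Lower counts in every hormone library occurred for 0 of 8 genes and for 0.0447% of all genes. List length also differed, and per 10000 peaks of its library the sum was 14.8, 16.1 and 8.26 with vehicle and 19.6, 20.1 and 15.8 with hormone. On that scale hormone replicate 3 lay below vehicle replicate 2, so the groups overlapped, while within each replicate number the hormone library was higher (3 of 3).

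Only the first 8756 peaks of each list, the length of the shortest, give every library the same number of peaks. In such lists the sum was 13, 20 and 20 with vehicle and 24 in each hormone library, and 2 of 8 genes, Cdx2 and Isx, remained separated (4.03% of all genes). Their separation was present in all 12 settings tried, which include the 50 kb window, 10 kb and 100 kb windows, shortened lists and lists without 1 library. Gata4 was separated in 8 of these settings, Creb3l3 in 9, Klf5 in 7, Cdx1 in 3, and Gata6 and Klf4 in 1 each. The scale per 10000 peaks was not among the 12 settings, and on it Cdx2 and Isx overlapped. Cdx2 had 1.14, 2.02 and 0.826 with vehicle against 3.14, 1.97 and 1.92 with hormone. Isx had 1.14, 3.36 and 0.826 against 3.14, 2.96 and 2.40. On that scale Cdx1 alone was separated, and the Gata6 mean was 2.23 with vehicle and 1.91 with hormone.

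**Figure D1:**
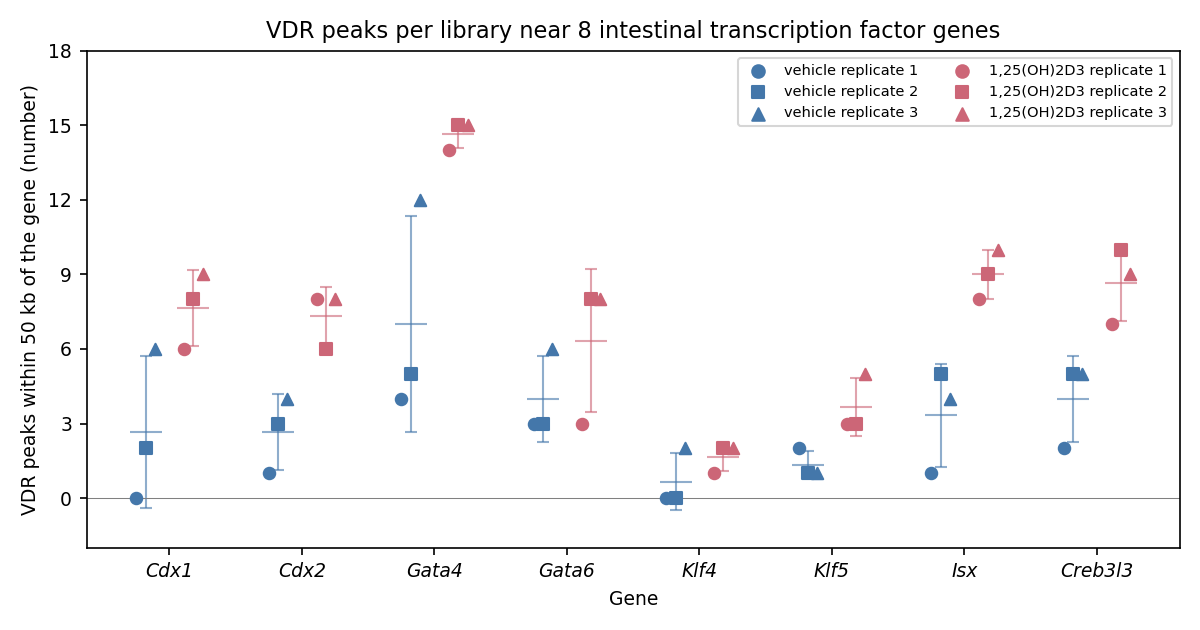
VDR peaks within 50 kb of each gene (number, vertical axis) in each library, with vehicle in blue and 1,25(OH)2D3 in red, the replicate number by symbol, and mean and SD (n = 3) as horizontal line and bar. The 3 hormone libraries of Gata4 sit at 14 to 15, above its vehicle libraries at 4 to 12, while Klf4 has at most 2 peaks in any library.

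Longer genes have wider windows, so the genes are compared per 100 kb of window. With hormone, Gata4 had 8.49 ± 0.334 peaks per 100 kb, Creb3l3 7.57 ± 1.33, Isx 7.45 ± 0.828 and Cdx2 6.89 ± 1.08 (mean ± SD, n = 3 libraries). Cdx1 followed with 6.53 ± 1.30 and Gata6 with 4.76 ± 2.17, and the KLF genes came last, Klf5 with 3.20 ± 1.01 and Klf4 with 1.58 ± 0.548. Neighbours in this order overlapped in their hormone libraries, except Klf5 and Klf4, whose ranges (2.62 to 4.36 and 0.949 to 1.90) did not. The median over all genes was 1.81, so 7 genes were above it and Klf4 was below.

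Cdx2, a homeobox gene that maintains intestinal identity (ENSMUSG00000029646.3, chromosome 5, 148112381 to 148118846, minus strand), had 1, 3 and 4 VDR peaks with vehicle and 8, 6 and 8 with hormone. All hormone libraries were above all vehicle libraries, at 7.33 ± 1.15 against 2.67 ± 1.53 (difference 4.67, two-sided exact permutation p = 0.1, the lowest value possible with 3 libraries a group). A region over the promoter, centred 130 bp upstream of the annotated start (148118791 to 148119161), was found in all 3 hormone libraries and in vehicle replicate 2. It was also among the regions highest in the lists. Counting list positions as percentiles with 100 for the first peak, it stood at 90.6, 93.1 and 96.7 in the hormone lists and 84.2 in vehicle replicate 2. What the list order follows is not stated, so a percentile is a position and not an amount of binding, and positions in lists of different lengths show no change.

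The promoter region has no DR3 with at most 1 mismatch in the central window. It holds 3 matches to a KLF-type letter pattern, GGGNGNG on either strand, which may overlap each other and are in capitals on the gene's strand. The pattern is common: 31.3% of all regions hold it within 100 bp of the centre. The window is shown because it is the start of a gene whose separation was present in all 12 settings, as was that of Isx.
Cdx2 promoter, chr5:148118876-148119076, minus strand: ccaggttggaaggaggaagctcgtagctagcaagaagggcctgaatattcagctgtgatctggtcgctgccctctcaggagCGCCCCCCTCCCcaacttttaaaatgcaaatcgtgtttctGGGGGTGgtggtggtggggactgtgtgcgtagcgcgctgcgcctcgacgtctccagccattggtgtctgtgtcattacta

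The other Cdx2 regions lay mostly downstream of the gene. Of 12 regions, 7 were in at least 2 hormone libraries. Those in all 3 hormone libraries lay 7.29, 8.02 and 46.3 kb downstream of the start, at the promoter, and 10.3 kb upstream in an intron of Prhoxnb. The last of these (148128942 to 148129264) was found in no vehicle library, and its hormone percentiles were 62.0, 45.4 and 53.6. The region at 46.3 kb (148072397 to 148072717) carries the DR3 printed above. It stood at 90.3, 87.8 and 95.8 in the hormone lists and was in vehicle replicates 2 and 3, and its nearest gene start is that of Pdx1, a homeobox gene of pancreas and duodenum.

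Cdx1, the second CDX gene of the intestinal epithelium (ENSMUSG00000024619.8, chromosome 18, 61178516 to 61195853, minus strand), had 0, 2 and 6 peaks with vehicle and 6, 8 and 9 with hormone. Vehicle replicate 3 equalled hormone replicate 1, so the groups overlapped, at 2.67 ± 3.06 against 7.67 ± 1.53 (difference 5, exact permutation p = 0.2). In lists of equal length the difference was −0.333 (0, 2 and 3 against 1, 2 and 1). Of its 11 regions, none was in all 6 libraries and 2 were found in all hormone and no vehicle libraries. One of those lies 3.89 kb upstream of the start (61199536 to 61199957), at percentiles 57.0, 51.3 and 58.3. The other lies 30.4 kb downstream of the start, in a coding exon of the neighbouring transporter gene Slc6a7, at 27.4, 17.1 and 35.8. An intronic region 1.08 kb inside the gene (61194608 to 61194931) was present in all hormone libraries and in vehicle replicates 2 and 3, with a DR3 of 1 mismatch.

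Gata4, which specifies the proximal small intestine (ENSMUSG00000021944.8, chromosome 14, 63817759 to 63890529, minus strand), had the widest window and the most VDR peaks of the 8 genes. It had 4, 5 and 12 with vehicle and 14, 15 and 15 with hormone. The groups were separated, at 7 ± 4.36 and 14.7 ± 0.577 (difference 7.67, exact permutation p = 0.1). Among all genes its hormone mean was at percentile 99.4 and its vehicle mean at percentile 98.1. Per 100 kb of window its hormone mean was at percentile 98.3. Vehicle replicate 3, at 12, was close to the hormone libraries. Without that library the vehicle mean was 4.5. In lists of equal length the counts were 4, 5 and 4 against 5, 5 and 6, which touch at 5.

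The 26 Gata4 regions include 2 found in all 6 libraries, both in introns. One lies 38.6 kb from the outermost start (63851775 to 63852169). It stood at 83.0, 95.5 and 99.0 in the vehicle lists and 95.9, 97.5 and 98.2 in the hormone lists, and carries the DR3 printed above. The other lies 10.5 kb from that start (63879756 to 63880209), at 54.7, 72.0 and 96.5 with vehicle and 90.2, 94.6 and 96.2 with hormone. It has no DR3 within 1 mismatch but holds both a GATA pattern (AGATAA) and a CDX pattern (TTTATG), each searched on both strands. Both regions stood above the 90th percentile in every hormone list.

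Gata4 has 6 annotated starts, spread along the locus. A region 201 bp upstream of one of them (63864146 to 63864472) was found in all 3 hormone libraries and in vehicle replicate 1. Its percentiles were 67.5, 77.5 and 83.7 with hormone and 69.2 in vehicle replicate 1. It has no DR3 within 1 mismatch and 2 KLF patterns, in capitals. It is shown beside the Cdx2 promoter as another region in all hormone libraries within 1 kb of an own start. Isx and Creb3l3 also have such regions.
Gata4 promoter, chr14:63864209-63864409, minus strand: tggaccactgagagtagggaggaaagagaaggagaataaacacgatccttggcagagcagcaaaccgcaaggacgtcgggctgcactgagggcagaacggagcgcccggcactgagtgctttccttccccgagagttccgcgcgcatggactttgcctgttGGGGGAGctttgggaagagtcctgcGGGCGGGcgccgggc

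A pair of Gata4 regions was present in all hormone libraries and no vehicle library. One lies 40.7 kb upstream (63930989 to 63931439), low in the lists at 13.7, 21.0 and 33.2. The other lies 93.4 kb downstream of the outermost start, 477.5 bp from the start of Fdft1 (63796898 to 63797317), at 63.8, 61.5 and 78.2. Fdft1 encodes squalene synthase, so this region is closer to a sterol synthesis gene than to Gata4. A Neil2 exon 88.4 kb from the outermost start held a region in all hormone libraries and vehicle replicate 3, with a DR3 of 1 mismatch. In lists of equal length this Neil2 region was in all hormone and no vehicle lists.

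Gata6, the other GATA gene of the list and a factor of crypt cells (ENSMUSG00000005836.8, chromosome 18, 11052508 to 11085633, plus strand), had 3, 3 and 6 peaks with vehicle and 3, 8 and 8 with hormone. Hormone replicate 1 was as low as the vehicle libraries, so the groups overlapped, at 4 ± 1.73 against 6.33 ± 2.89 (difference 2.33, exact permutation p = 0.4). The difference was −0.333 in lists of equal length. Of 12 regions, none was in all 6 libraries, and none was in all hormone and no vehicle libraries. The steadiest regions lie upstream. One at 3.95 kb (11048372 to 11048748, DR3 of 1 mismatch) was in all hormone libraries, at 88.3, 88.6 and 91.8, and in vehicle replicates 1 and 3. One at 4.89 kb (11047427 to 11047802) was in all hormone libraries and vehicle replicate 3. Whether Gata4 and Gata6 differ in their change with hormone was not tested.

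Isx, an intestine-specific homeobox gene that represses vitamin A uptake and cleavage genes (ENSMUSG00000031621.3, chromosome 8, 77396618 to 77417405, plus strand), had 1, 5 and 4 peaks with vehicle and 8, 9 and 10 with hormone. The groups were separated, at 3.33 ± 2.08 and 9 ± 1 (difference 5.67, exact permutation p = 0.1). In lists of equal length the counts were 1, 3 and 1 against 6, 5 and 5, and within 10 kb of the gene 1, 4 and 2 against 6, 6 and 7. Of the 8 genes Isx had the largest difference in lists of equal length, at 3.67. No other protein-coding gene lies within the window, and by outermost starts 12 of its 13 regions are nearest to Isx.

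The Isx start held a region in all 3 hormone libraries and in no vehicle library. It is centred 362 bp inside the first exon (77396778 to 77397182), ahead of the coding sequence, at percentiles 68.8, 76.4 and 82.4, and its central DR3 of 1 mismatch is the 15-base site printed above. A further region of the same pattern lies 29.2 kb downstream of the start, beyond the end of the gene (77425633 to 77425990). At 82.8, 87.1 and 90.5 it stood highest among the 9 hormone-only regions near the 8 genes. Both stayed hormone-only in lists of equal length and in the first 50% of each list. The downstream window has no DR3 within 1 mismatch. It contains a CDX pattern, and it is shown because no vehicle list held it.
Isx downstream region, chr8:77425711-77425911, plus strand: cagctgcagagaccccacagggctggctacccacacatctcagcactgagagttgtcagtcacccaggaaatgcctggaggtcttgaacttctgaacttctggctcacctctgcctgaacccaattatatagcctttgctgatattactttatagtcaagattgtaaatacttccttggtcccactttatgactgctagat

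Other Isx regions lie in its introns and on both sides. Regions 4.82 and 13.7 kb inside the gene and 21.9, 30.6 and 48.5 kb from the start were in all hormone libraries and in 1 or 2 vehicle libraries. The exact DR3 39.6 kb upstream (77356779 to 77357271) belonged to a region in all hormone libraries and vehicle replicate 3. It was low in the hormone lists, at 5.61, 0.553 and 17.0, and at 65.0 in vehicle replicate 3. Its mean percentile, 22.0, was the lowest of the Isx regions in all hormone libraries.

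Creb3l3, which encodes a membrane-bound factor of liver and intestine that acts on lipid and apolipoprotein genes (ENSMUSG00000035041.8, chromosome 10, 80547069 to 80561619, minus strand), had 2, 5 and 5 peaks with vehicle and 7, 10 and 9 with hormone. The groups were separated, at 4 ± 1.73 and 8.67 ± 1.53 (difference 4.67, exact permutation p = 0.1). In lists of equal length the counts were 2, 5 and 4 against 4, 5 and 5, which overlap. Creb3l3 and Gata4 were the 2 of 8 genes with a region in all 6 libraries, which 29.1% of all genes had. Without vehicle replicate 1, which has the shortest list, 6 of 8 genes had a region in every remaining library, and such regions numbered 12 in place of 4. The share of all genes in that setting is not given here.

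The Creb3l3 regions in all 6 libraries flank the start of the gene. One lies in an intron 3.40 kb inside it (80558058 to 80558377), at 90.4, 95.1 and 97.5 with vehicle and 93.3, 97.0 and 96.5 with hormone, with the DR3 printed above. The other lies 3.85 kb upstream (80565257 to 80565673), at 85.5, 95.9 and 98.5 with vehicle and 97.2, 98.1 and 98.4 with hormone. The nearest start to the latter is that of Map2k2, a kinase of the MAP kinase pathway, 3.19 kb away. It was the highest in the lists of all 98 regions, at a mean percentile of 95.6, and has no DR3 within 1 mismatch. Its central bases are shown for that reason, with nothing capitalised.
Creb3l3 upstream region, chr10:80565365-80565565, minus strand: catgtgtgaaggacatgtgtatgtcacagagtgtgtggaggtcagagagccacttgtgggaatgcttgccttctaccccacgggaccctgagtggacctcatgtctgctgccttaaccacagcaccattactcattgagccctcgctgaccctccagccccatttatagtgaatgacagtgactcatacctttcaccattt

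Creb3l3 has 4 annotated starts. A region 242.5 bp upstream of an internal one (80555412 to 80555713) was found in all hormone libraries, at 90.0, 90.9 and 92.1, and in vehicle replicate 2, at 77.9. A region 922.5 bp downstream of such a start was found in hormone replicates 2 and 3 and in no vehicle library. The hormone-only regions lie at the edges of the window. One is 55.7 kb downstream of the start and nearest to Slc39a3, a zinc transporter gene, at 26.5, 12.2 and 31.8. The other is 48.4 kb upstream in an intron of Zbtb7a, at 65.2, 46.0 and 53.0. Both carry a DR3 of 1 mismatch. Counting only the outermost start of each gene, 3 of the 13 regions have Creb3l3 as their nearest start. By that rule a region 9.34 kb from an internal Creb3l3 start went to Thop1, at 12.5 kb.

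The KLF genes had few VDR peaks. Klf5, a factor of proliferating crypt cells (ENSMUSG00000005148.7, chromosome 14, 99697910 to 99712624, plus strand), had 2, 1 and 1 with vehicle and 3, 3 and 5 with hormone. The groups were separated by 1 peak, at 1.33 ± 0.577 and 3.67 ± 1.15 (difference 2.33, exact permutation p = 0.1), and the difference was −0.333 in lists of equal length. An intronic region 6.54 kb inside Klf5 (99704275 to 99704634) was in all hormone libraries, at 83.6, 77.2 and 87.6, and in vehicle replicate 1. A region 64.3 kb from the start was in all hormone libraries and vehicle replicates 2 and 3. None of the 7 Klf5 regions had a DR3 within 1 mismatch.

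Klf4, a factor of goblet cell differentiation (ENSMUSG00000003032.7, chromosome 4, 55540013 to 55545347, minus strand), had 0, 0 and 2 peaks with vehicle and 1, 2 and 2 with hormone. The groups overlapped, at 0.667 ± 1.15 and 1.67 ± 0.577 (difference 1, exact permutation p = 0.4). None of its 4 regions was in all 3 hormone libraries. The region 934 bp upstream of its start (55546102 to 55546460) was in hormone replicates 2 and 3 and in vehicle replicate 3. Within 100 kb the counts were 5, 4 and 12 with vehicle and 7, 8 and 8 with hormone, so the wider surroundings held more peaks in both groups.

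**Figure D2:**
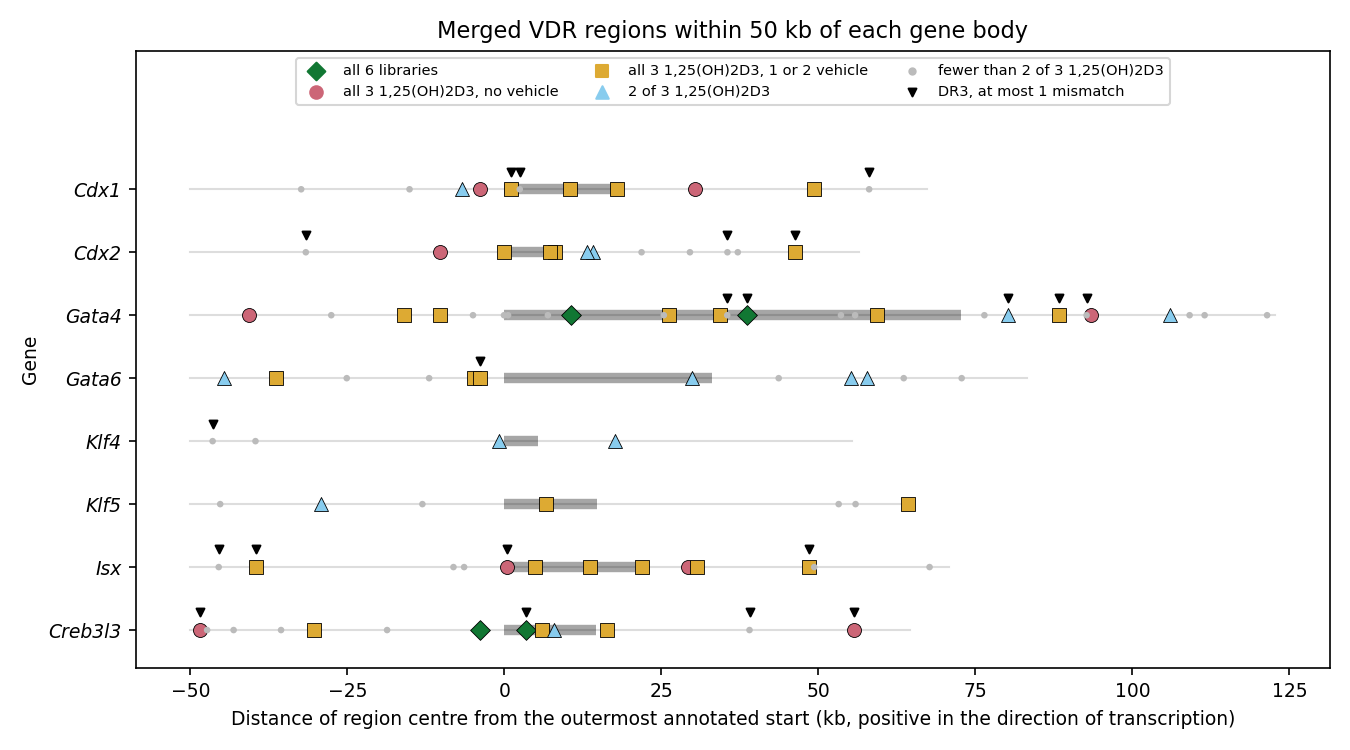
Position of the 98 merged VDR regions around the 8 genes, as distance of the region centre from the outermost annotated start (kb, horizontal axis, positive in the direction of transcription). Thick grey bars are gene bodies, symbols give the libraries that held the region, and triangles above mark a DR3 with at most 1 mismatch. Isx has a hormone-only region at its start, and the 4 regions in all 6 libraries lie near Gata4 and Creb3l3.

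Of the 98 regions, 28 were in all hormone libraries and 1 or 2 vehicle libraries (28.6%, against 10.2% of all regions). A further 9 were hormone-only (9.18%, against 5.39%) and 4 were in all 6 libraries (4.08%, against 4.99%), so that 41 were in all 3 hormone libraries (41.8%, against 20.5%). In at least 2 of them were 54 regions (55.1%, against 32.4%). Regions in all 3 vehicle libraries and no hormone library numbered 0, against 0.0299% of all regions. Another 41 regions were found in 1 library only (41.8%, against 62.6%). Vehicle replicate 3 alone held 12 of these, which is 12.2% of the 98, against 37.0% of all regions. Such regions enlarge the total behind every share over all regions. Within the regions in all 3 hormone libraries, 9 of 41 were hormone-only here and 4687 of 17875 in the genome. At the level of genes, 5 of 8 had a hormone-only region (33.2% of all genes) and 8 of 8 a region in at least 2 hormone libraries (70.2%). Without vehicle replicate 3 the number of hormone-only regions was 18, and the share of all regions in that setting is not given here.

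**Figure D3:**
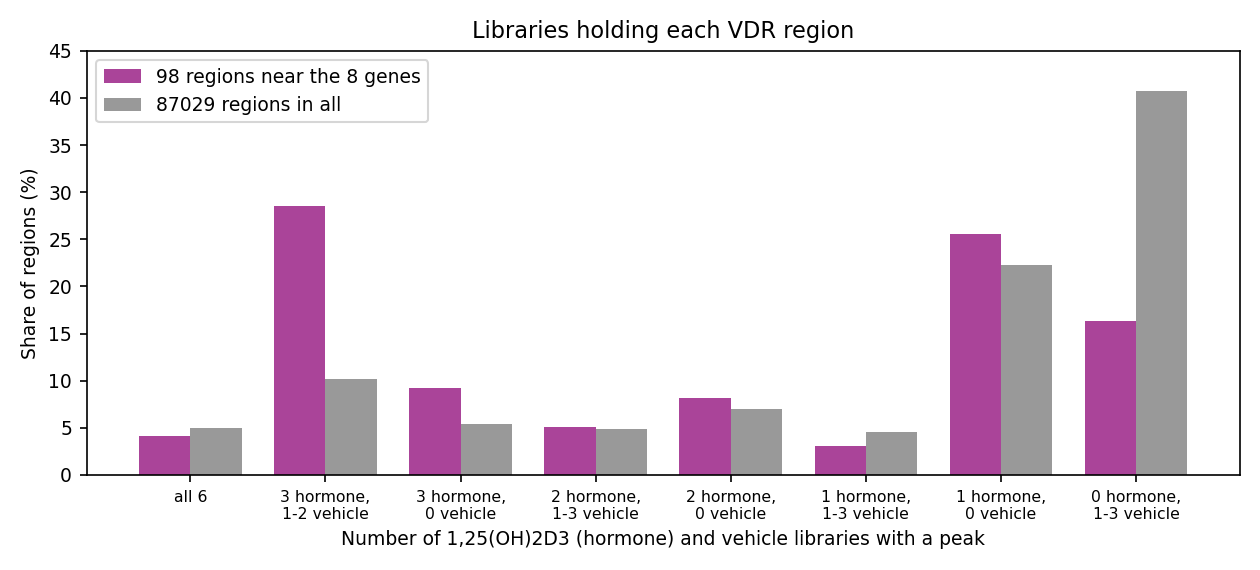
Share of regions (%, vertical axis) by the number of 1,25(OH)2D3 and vehicle libraries that held them (horizontal axis), for the 98 regions near the 8 genes in purple and all 87029 regions in grey. Regions in 3 hormone and 1 or 2 vehicle libraries make up 28.6% of the purple set and 10.2% of the grey set.

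The vehicle libraries held different shares of the 41 regions found in all hormone libraries. Vehicle replicate 1, with the shortest list, held 10 of them (24.4%), replicate 2 held 19 (46.3%) and replicate 3 held 23 (56.1%). The same shares over the 17875 such regions in the genome were 34.8%, 50.3% and 59.6%. Conversely, of the 17 regions near these genes in at least 2 vehicle libraries, 16 were in all hormone libraries (94.1%, against 79.1% of all such regions). The exception was the region 29.8 kb inside Gata6, which hormone replicate 1 lacked. Regions in all 6 libraries had a median list percentile of 94.9 and hormone-only ones 54.7, and the same medians over all regions were 83.6 and 51.0.

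**Figure D4:**
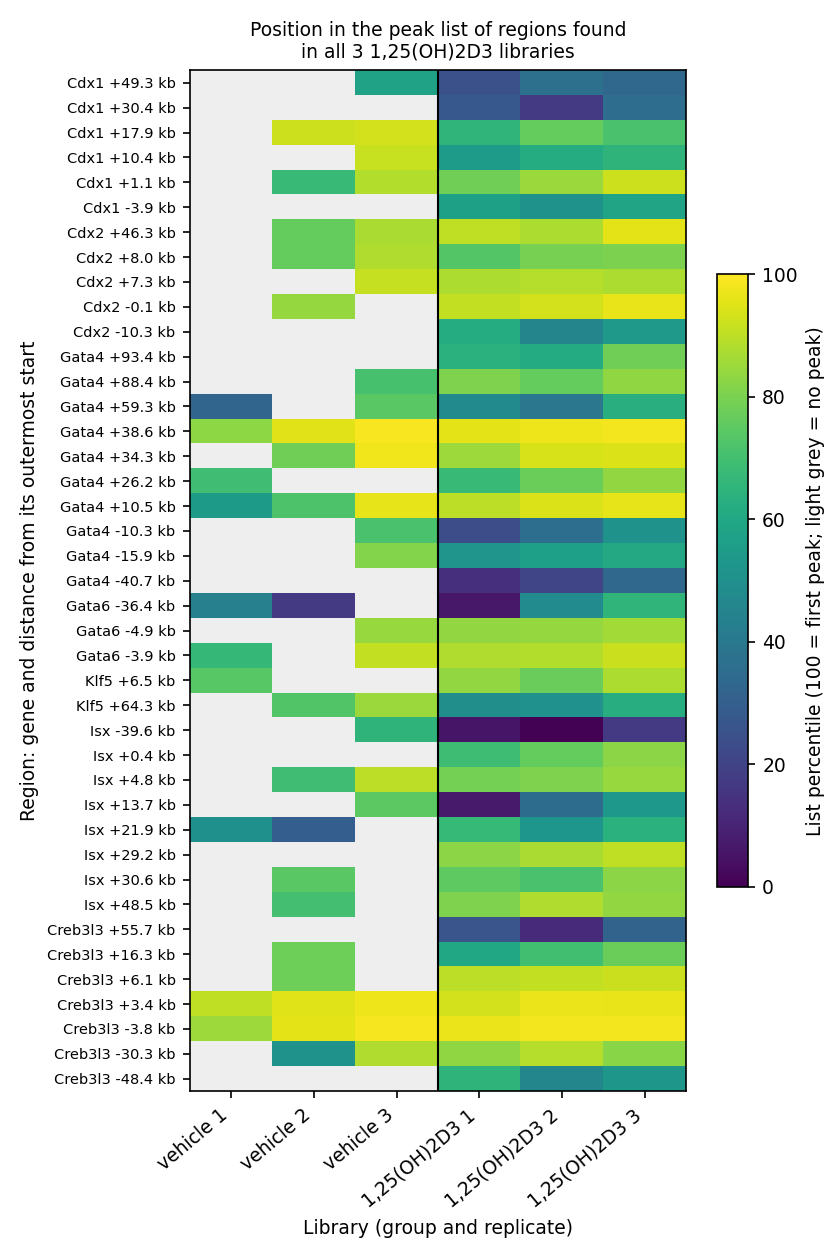
List percentile (colour, 100 for the first peak, light grey for no peak) of the 41 regions found in all 3 1,25(OH)2D3 libraries, one row per region with its gene and distance from the outermost start, one column per library. The regions of Gata4 at 38.6 kb and Creb3l3 at 3.40 and −3.85 kb are high in all 6 columns, and vehicle replicate 1 holds 10 of the 41.

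Most regions lay away from starts, but the spread over the windows was not even. From the closest own start, 8 regions lay under 1 kb, 12 at 1 to 5 kb and 12 at 5 to 10 kb. A further 15 lay at 10 to 20 kb, 39 at 20 to 50 kb and 12 over 50 kb. These bins widen with distance, so the regions were densest close to starts. Of the 98, 12 lay within 1 kb of an annotated start, 33 in introns, 2 in coding exons, 2 in untranslated exons and 49 between genes. The location was in or at the member gene for 25 regions and in or at a neighbouring gene for 24. Counting only the outermost start of each gene, the nearest start was that of the member for 61. By that rule Gata4 regions 1.17 to 4.50 kb from an internal Gata4 start went to Neil2. A region in at least 2 hormone libraries lay within 1 kb of an own start for 5 of 8 genes (Cdx2, Gata4, Klf4, Isx and Creb3l3), as for 18.8% of all genes. Just inside the 50 kb limit were regions at 49.6 kb (Klf5), 48.7 kb (Gata4) and 48.4 kb (Creb3l3) from the gene body, and just outside it at 52.4 kb (Creb3l3), 52.9 kb (Gata6) and 53.2 kb (Klf5).

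A DR3 with at most 1 mismatch lay within 100 bp of the centre of 21 of the 98 regions (21.4%), and of 10.9% of all regions. In windows of the same size 5 kb to the right it lay in 6 of 98 (6.12%, against 4.13% of all such windows). Among the 54 regions in at least 2 hormone libraries the number was 12 (22.2%, against 18.7% of all such regions). In their shifted windows it was 6 (11.1%, against 4.34%). Among the 41 regions in 1 library it was 9 (22.0%, against 6.96% of all such regions), and 0 in their shifted windows (against 4.02%). By gene, Gata4 had 5 regions with a DR3, Isx and Creb3l3 4 each, Cdx1 and Cdx2 3 each, Gata6 and Klf4 1 each and Klf5 0. A DR3 with 0 mismatches occurred in 2 regions, the one upstream of Isx and one at the start of Sgta in the Creb3l3 window, which hormone replicate 2 alone held.

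Patterns of the factors themselves were searched in the same windows. The CDX pattern TTTATG was in 7 regions (7.14%, against 16.2% of all regions). It was in 12 of the windows 5 kb to the right (12.2%, against 14.7% of all such windows). No region near Cdx1 or Cdx2 held it, while 3 of the 13 Isx regions did. The GATA pattern AGATAA was in 16 regions (16.3%, against 18.4%) and 5 of the shifted windows (5.10%, against 12.2% of all shifted windows). Of the 16, 5 lay near Gata4 and 1 near Gata6. The KLF pattern GGGNGNG was in 46 (46.9%, against 31.3%) and in 38 of the shifted windows (38.8%, against 27.4% of all shifted windows). It was in 8 of 11 regions near Cdx1, 9 of 13 near Creb3l3 and 12 of 26 near Gata4. Near the KLF genes themselves it was in 2 of 4 Klf4 regions and 1 of 7 Klf5 regions. The rest were 6 of 12 regions near Cdx2, 3 of 12 near Gata6 and 5 of 13 near Isx. The median base composition of the 54 regions in at least 2 hormone libraries was 52.0% G and C, against 47.8% for all such regions. A pattern match is a run of letters and not a measured site.

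The relatives of the 8 genes show how the families compare. All 3 CDX genes, 6 of 6 GATA genes, 15 of 17 KLF genes and 5 of 5 CREB3 genes had a region in at least 2 hormone libraries, as did 70.2% of all genes. Every hormone library stood above every vehicle library for 1 of 3 CDX, 3 of 6 GATA, 4 of 17 KLF and 3 of 5 CREB3 genes, and for 16.0% of all genes. The median over the family of the mean peak number was 2.67 with vehicle and 7.33 with hormone for CDX, 3 and 5.83 for GATA, 2.67 and 4 for KLF, and 1 and 4 for CREB3. Over all genes it was 1.33 and 2.33.

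In the CDX family, Cdx4, a factor of the early embryo, had 1, 1 and 6 peaks with vehicle and 3, 2 and 2 with hormone, without separation. Among GATA genes, Gata5, which is also expressed in gut epithelium, had 2, 3 and 5 against 11, 10 and 11. Gata1, a blood cell factor, had 0, 0 and 2 against 3, 5 and 8. Gata2 had 1, 1 and 0 against 1, 1 and 1, and Gata3 had 1, 2 and 5 against 2, 2 and 4. Gata5 and Gata1 were thus separated and Gata2 and Gata3 were not.

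In the CREB3 family, Creb3l3 was one of 3 separated genes. Creb3, the founding member of the family, had 0, 1 and 1 peaks with vehicle and 4 in each hormone library. Creb3l1 had 1, 0 and 1 against 2, 4 and 3. Both were separated, while Creb3l2, with 6, 9 and 11 against 11, 9 and 14, and Creb3l4, with 0, 2 and 1 against 1, 1 and 3, were not. Among KLF genes the highest hormone means were those of Klf13 (13.7 ± 1.53), Klf10 (9 ± 1) and Klf3 (9 ± 2). Klf10 was separated, at 3, 3 and 2 against 8, 9 and 10.

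**Figure D5:**
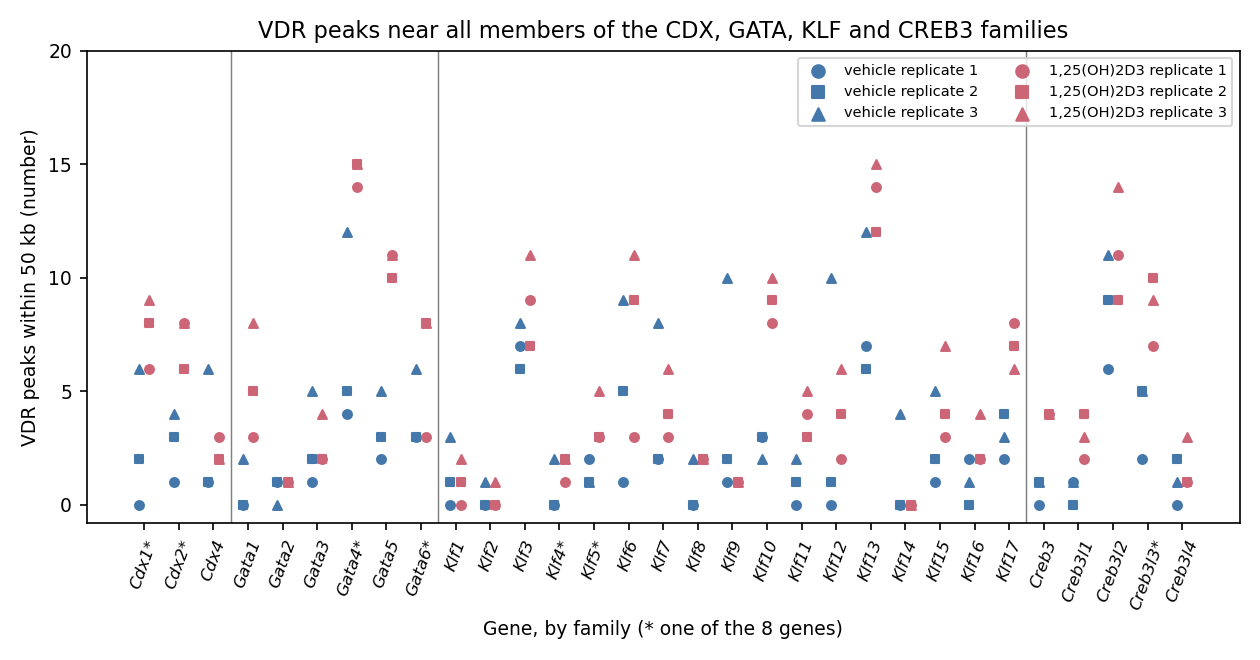
VDR peaks within 50 kb (number, vertical axis) of every CDX, GATA, KLF and CREB3 gene in each library, with vehicle in blue and 1,25(OH)2D3 in red, symbols by replicate and an asterisk at the 8 genes. Gata4 and Gata5 have hormone libraries at 14 to 15 and 10 to 11, above their vehicle libraries.

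Other regulators and target genes were counted in the same way, beside the 70.2% of all genes with a region in at least 2 hormone libraries and the 16.0% separated upward. Of 24 other intestinal regulators, 22 had such a region and 6 were separated upward. Pdx1, 1 of the 6, lies in the Cdx2 window, so the counts of these genes share peaks. Among the highest hormone means were those of the Wnt effector Tcf7l2 (17.3 ± 4.16) and of Elf3 (11.7 ± 0.577). Textbook targets of the listed factors also had VDR regions. Both ISX targets did, with Scarb1, a lipid and carotenoid receptor, at 2, 5 and 4 against 8, 9 and 11 and Bcmo1, the carotene cleavage enzyme, at 5, 4 and 12 against 10, 13 and 14. All 4 CREB3L3 targets had such regions and 2, Apoa4 and Apoa1, were separated. These are neighbours on 1 chromosome whose windows share peaks. Of 6 CDX and GATA targets, 6 had such a region and 0 were separated, and of the KLF targets Alpi and Cdkn1a both had one and Cdkn1a was separated.

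Genes elsewhere in the genome shared these counts. The likeness was measured as the summed absolute difference in peak number over the 6 libraries, among genes on other chromosomes. Cdx2 had the same counts as Ppil6 (difference 0), and Isx differed by 1 from Gm15800. Gata4 differed by 2 from Sppl3, Cdx1 by 1 from Ubxn11, Gata6 by 1 from Hhat, and Klf5 by 1 from Mrps10 and Zc3hav1l. Creb3l3 differed by 2 from 6 genes, among them Egfl7, and Klf4 by 0 from 22 genes.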

How the data were processed

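VDR ChIP-seq peak lists of 6 libraries were used, 3 vehicle and 3 1,25(OH)2D3, grouped by the treatment in their labels. Per the submitters' processing notes, the authors used Bowtie and HOMER with build mm9. Per the file headers, peaks came from HOMER's factor mode, separately for every library, against 1 input, with a false discovery rate of 0.001, at least 4-fold over input and over the local 10 kb, and a Poisson p limit of 0.0001. The deposited files give peak positions and a score, which is 1 for every peak and was not used to rank. Tag counts per peak were not used here, so comparisons rest on presence or absence, and the only precision is the spread over 3 libraries. The order of each list gave the list percentile.

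Peaks on chromosomes 1 to 19, X and Y that overlapped by at least 1 bp were merged, and genes came from GENCODE on NCBI 37. A peak was assigned to a gene when its centre lay within 50 kb of the gene body, and the location and nearest outermost start were taken at the region centre. Group differences per gene were tested by exact two-sided permutation over libraries (Python 3.11.15, numpy 2.4.6, scipy 1.17.1), and merging and counting were tested on simulated data. No p was computed over the 8 genes together. The genes, the gene lists and the motifs were chosen with earlier results of these data known. Named were all 8 genes, their regions that were hormone-only or in all 6 libraries, regions in at least 2 hormone libraries within 1 kb of an own start, the 3 highest in the lists, and fixed picks from each list. Other regions named, and the longer windows shown, were chosen after their values were seen. Gfi1 was not found as a unique gene. The value of 1 gene that the rule named is not reported here.

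Replicate numbers were checked for pairing over 20254 genes. Deviations from the group mean correlated at 0.187, 0.154 and 0.418 for equal numbers and at −0.280 to 0.108 for different ones, so the numbers were treated as pairs in an alternative with a replicate block. Other alternatives were each library left out, lists of equal length, the first 50% of each list, windows of 10 and 100 kb or around the start only, other overlaps and other DR3 settings.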

Additional observations from a re-analysis of the deposited data

How the results depend on the processing

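In lists of the same 8756 peaks the difference was −0.333 for each of Cdx1, Gata6 and Klf5 (exact permutation p = 1). The summed difference of 33.3 peaks became 6.33 with lists of equal length, 17.7 with the first 50% of each list and 16 within 10 kb, and 27 to 40.5 with 1 library left out. Merged regions (98) numbered 41, 64, 44 and, within 100 kb, 163, and 86 to 96 with 1 library left out. Hormone-only regions (9) numbered 3, 4 and 3 in the first 3 of these settings and 9 to 18 with 1 library left out: 18 when vehicle replicate 3 was omitted, and 14 when vehicle replicate 2 or hormone replicate 1 was. Regions in all libraries (4) numbered 12 within 100 kb and 4 to 12 with 1 library left out (12 without vehicle replicate 1). Regions in at least 2 hormone libraries (54) numbered 23 with equal lists, 32 within 10 kb, 84 within 100 kb and 42 to 54 with 1 library left out. Separated genes (5) numbered 2 with equal lists, 3 with the first 50%, 2 within 10 kb, 3 within 100 kb and 5 to 7 with 1 library left out. Regions with a DR3 (21) numbered 11 with equal lists, 8 within 10 kb, 2 with 0 mismatches, 62 with 2, 8 within 50 bp of the centre and 17 to 21 with 1 library left out. Vehicle-only regions stayed at 0 in all 13 alternatives. Shares over all genes or regions in these settings are not given here, apart from separated genes with equal lists (4.03%). Some of these settings keep fewer peaks or use smaller windows by construction. The cause of the changes in the counts was not tested.

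With the replicate block, a sign-flip test over 3 pairs whose smallest p is 0.25, the differences were 5 for Cdx1, 4.67 for Cdx2 and Creb3l3, 7.67 for Gata4, 2.33 for Gata6 and Klf5, 1 for Klf4 and 5.67 for Isx, with exact p = 0.25 except for Gata6 and Klf4 (exact p = 0.5), and the summed difference was 33.3. No single gene could pass 0.05 with 3 libraries a group in either test, so the pairing could change no call. In every library an absent region cannot be told apart from one under the calling threshold. Vehicle replicate 1 had more tags (19733260) than hormone replicates 1 and 2 (17152461 and 17438643) and fewer peaks (8756 against 25510 and 30390).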
